A study of Mus musculus with 12 samples.

Results

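The genes described here are 10 that mark the choroid plexus epithelium and that were read in cortex libraries, namely Ttr, Kl, Folr1, Clic6, Kcnj13, Otx2, Sostdc1, Slc4a5, Mfrp and Tmem72. They are 10 of the 50563 genes in the count table, and each was found by its mouse Ensembl identifier. They were chosen by their levels in these same libraries, being seen strongly in some CTRL libraries and not in others, so their levels, their fold changes between the groups and their correlations with each other are given as a description, with no test.

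RNA-Seq was run on the brain cortex of 12 E4FAD mice, with 7 in the CTRL group and 5 in the DPAn-6 group and 1 library per mouse. E4FAD mice (APOE4+/+, 5FAD-/+) carry human APOE4 in place of mouse Apoe together with 1 copy of the 5xFAD transgenes for familial Alzheimer's disease, and both groups shared this genotype. DPAn-6, an omega-6 docosapentaenoic acid, was given by oral gavage each day at 700 mg/kg for 3 weeks. CTRL mice had the vehicle, and the antioxidants alpha-tocopherol and palmitoyl ascorbic acid in it went to both groups. CTRL mice 1 and 7 and DPAn-6 mice 3 and 4 were 12 months old, and the other 8 mice were 14 months old. Sex was given per group only. The mice were perfused with buffer and the regions of 1 hemisphere were dissected.

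The choroid plexus is a sheet of epithelium over a leaky capillary bed that hangs in the brain's ventricles and makes cerebrospinal fluid. Its cells move ions, bicarbonate and water, carry vitamins and hormones between blood and fluid, and make transthyretin in very large amounts, while the cortex itself makes little of it. It lies next to the hippocampus, the striatum and the ciliated ependyma, and is not a part of the cortex.

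The CTRL libraries held 15339098 to 19500154 counts on genes, and the DPAn-6 libraries 15208803 to 26520251. The tissue label was checked against 8 genes of cortical excitatory neurons. All 8 were above 1 count per 1000000 counts on genes (CPM) in every library, and their summed level was 2458 to 3153 CPM in CTRL and 2794 to 2981 CPM in DPAn-6. None of the 8 was called between the groups by edgeR or by DESeq2, and 2 had an unadjusted edgeR p below 0.05, 1 in each direction. The library of CTRL 3 had the strongest trend on GC content, and that of CTRL 2 the strongest in the other direction. Across 14434 genes the Spearman rho between its deviation from the other libraries and the GC content of the gene's longest transcript was -0.617, against -0.446 to 0.501 in the other 11 libraries.

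Of the 10 genes, 6 had an entry in the RefSeq table of promoters for GRCm38.p6 (Kcnj13, Kl, Slc4a5, Tmem72, Mfrp and Otx2), and Ttr, Folr1, Clic6 and Sostdc1 had none. Each window of 250 bases before a start site was searched for TAATCC and its reverse complement GGATTA, the core letters bound by Otx2 and its relatives, since Otx2 is itself one of the genes. The letters were in 2 of the 9 windows, at 134 bases before the start of Mfrp and at 211 bases before 1 of the 4 starts of Otx2, the latter inside annotated exons. They were in 6.25% of all 32851 windows, and in 2 of the 37 windows of 28 other choroid plexus genes. A pair of stretches free of exons are shown, both 5′ to 3′ on the strand of the gene and with the searched letters in capitals. Mfrp is shown for the match, and Kcnj13, which holds none, because its level followed that of Ttr most closely.
Mfrp (chr9:44101520-44101728, plus strand): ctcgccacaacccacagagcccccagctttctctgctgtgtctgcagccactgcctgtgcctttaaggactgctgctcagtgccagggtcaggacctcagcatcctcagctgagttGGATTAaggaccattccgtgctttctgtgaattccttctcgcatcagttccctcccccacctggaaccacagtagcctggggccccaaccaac
Kcnj13 (chr1:87394730-87394979, minus strand): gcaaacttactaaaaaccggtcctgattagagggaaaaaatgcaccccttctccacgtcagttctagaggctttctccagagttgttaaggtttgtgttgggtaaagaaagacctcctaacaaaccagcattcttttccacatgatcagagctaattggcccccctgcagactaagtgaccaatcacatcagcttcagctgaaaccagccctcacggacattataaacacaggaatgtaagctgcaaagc
A match of letters is no evidence of binding, and the absence of one says only that these letters are not in this window.

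Ttr encodes transthyretin, the carrier of thyroxine and retinol-binding protein that the choroid plexus secretes (ENSMUSG00000061808, chr18:20665280-20674321 in GRCm38, the build of all positions here). Ttr was at 21.5, 1529.7, 167, 24.1, 941, 16.7 and 6.0 CPM in CTRL mice 1 to 7, and at 4.78, 1.79, 4.78, 3.16 and 14.7 CPM in DPAn-6 mice 1 to 5. CTRL 2, CTRL 5 and CTRL 3 were far above the other 9 libraries, CTRL 2 by 97.4 times over the median of the 12. The remaining CTRL mice, at 6.0 to 24.1 CPM, overlapped with the DPAn-6 mice, in which the highest value was 14.7 CPM in mouse 5. In CTRL 2, Ttr alone took 0.153% of all counts on genes, and in DPAn-6 mouse 2 it took 0.000179%. Ttr was detected in all 12 libraries, with 32 counts in the lowest.

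Folr1 encodes folate receptor alpha, which takes folate across the epithelium (ENSMUSG00000001827, chr7:101858331-101870788). Folr1 was at 0.410, 8.90, 0.848, 0.287, 6.97, 0.270 and 0.0561 CPM in CTRL mice 1 to 7, and at 0.380, 0.112, 0.302, 0.263 and 0.264 CPM in DPAn-6 mice 1 to 5. Here CTRL 2 and CTRL 5 stood alone, and CTRL 3 rested on 13 counts and the other 9 libraries on 1 to 7 counts each.

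Kl and Sostdc1 belong to signalling. Kl encodes klotho, the co-receptor for the hormone FGF23 (ENSMUSG00000058488, chr5:150952607-150993817). Kl was at 3.45, 78.5, 22.3, 5.16, 49.3, 3.51 and 3.76 CPM in CTRL mice 1 to 7, and at 3.64, 3.81, 2.61, 4.67 and 3.77 CPM in DPAn-6 mice 1 to 5. Outside CTRL 2, CTRL 5 and CTRL 3, Kl kept a level of 2.61 to 5.16 CPM that the CTRL and DPAn-6 mice shared. Sostdc1 encodes a secreted antagonist of BMP and Wnt signalling (ENSMUSG00000036169, chr12:36314139-36318452). Sostdc1 was at 0.351, 11.1, 5.54, 0.458, 6.0, 0.485 and 0.224 CPM in CTRL mice 1 to 7, and at 0.489, 0.448, 0.553, 0.592 and 0.641 CPM in DPAn-6 mice 1 to 5. CTRL 3 was close to CTRL 5 for this gene. Of the 5 DPAn-6 mice, 4 were above the highest of the other 4 CTRL mice, but on few counts. Those CTRL mice had 4 to 9 counts and the DPAn-6 mice 8 to 17, with 9 in both CTRL 6 and DPAn-6 mouse 1.

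Clic6, Kcnj13 and Slc4a5 belong to ion transport. Clic6 encodes an intracellular chloride channel protein (ENSMUSG00000022949, chr16:92485736-92541243). Clic6 was at 3.98, 32.2, 6.65, 2.29, 21.8, 2.0 and 2.19 CPM in CTRL mice 1 to 7, and at 1.20, 1.29, 2.16, 1.58 and 3.21 CPM in DPAn-6 mice 1 to 5. CTRL 1 was the nearest to CTRL 3, and in no library was Clic6 below 1 CPM. Kcnj13 encodes the potassium channel Kir7.1 of the apical membrane (ENSMUSG00000079436, chr1:87386363-87394729). Kcnj13 was at 1.64, 12.2, 3.19, 2.06, 9.03, 0.809 and 0.673 CPM in CTRL mice 1 to 7, and at 0.380, 0.504, 0.553, 0.526 and 0.943 CPM in DPAn-6 mice 1 to 5. The DPAn-6 mice were all below 1 CPM, and so were CTRL 6 and CTRL 7. Kcnj13 shares 623 exon bases with Gigyf2 on the other strand. Since no source used here gives the strand setting of the counting, it is not known how reads from these bases were counted.

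Slc4a5 encodes the sodium bicarbonate cotransporter NBCe2 (ENSMUSG00000068323, chr6:83219828-83304945). Slc4a5 was at 0.351, 17.0, 4.43, 0.172, 10.8, 0.162 and 0.281 CPM in CTRL mice 1 to 7, and at 0.217, 0, 0, 0.197 and 0.377 CPM in DPAn-6 mice 1 to 5. It was among the least detected outside the 3 high libraries, with 0 to 10 counts per library, and the 0 counts of DPAn-6 mice 2 and 3 allow up to 0.168 and 0.151 CPM (3 counts of the library total, for counting error only). Otx2 encodes the homeodomain transcription factor that sets up and maintains this epithelium (ENSMUSG00000021848, chr14:48657677-48673819). Otx2 was at 0.468, 4.48, 1.96, 0.573, 2.92, 0.108 and 0.224 CPM in CTRL mice 1 to 7, and at 0.380, 0, 0.101, 0.263 and 0.415 CPM in DPAn-6 mice 1 to 5. It was the lowest of the 10 in CTRL 2, and the mice outside the 3 high libraries had 0 to 11 counts. Its exons share 154 bases with Otx2os1 on the other strand, which had 11 counts over all libraries.

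Mfrp encodes a membrane protein with a frizzled-like domain (ENSMUSG00000034739, chr9:44101729-44109187), and Tmem72 a transmembrane protein (ENSMUSG00000048108, chr6:116679063-116716913). Mfrp was at 0.468, 20.6, 4.82, 0.516, 14.3, 0.270 and 0 CPM in CTRL mice 1 to 7, and at 0.0543, 0.0561, 0.101, 0 and 0.0754 CPM in DPAn-6 mice 1 to 5. All 5 DPAn-6 mice had 0 to 2 counts of Mfrp, and the 0 counts of CTRL 7 and DPAn-6 mouse 4 allow up to 0.168 and 0.197 CPM. Mfrp shares 1589 exon bases with C1qtnf5 on the same strand, and C1qtnf5 was listed at 0 in all 12 libraries. How reads from the shared bases were counted was not tested, and the level of Mfrp may lack them. Tmem72 was at 0.819, 45.8, 8.93, 1.09, 33.0, 0.431 and 0.393 CPM in CTRL mice 1 to 7, and at 0.326, 0.336, 0.151, 0.197 and 0.679 CPM in DPAn-6 mice 1 to 5. CTRL 4 was the highest outside the 3 high libraries, and DPAn-6 mouse 5 was the highest of its group.

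**Figure D1:**
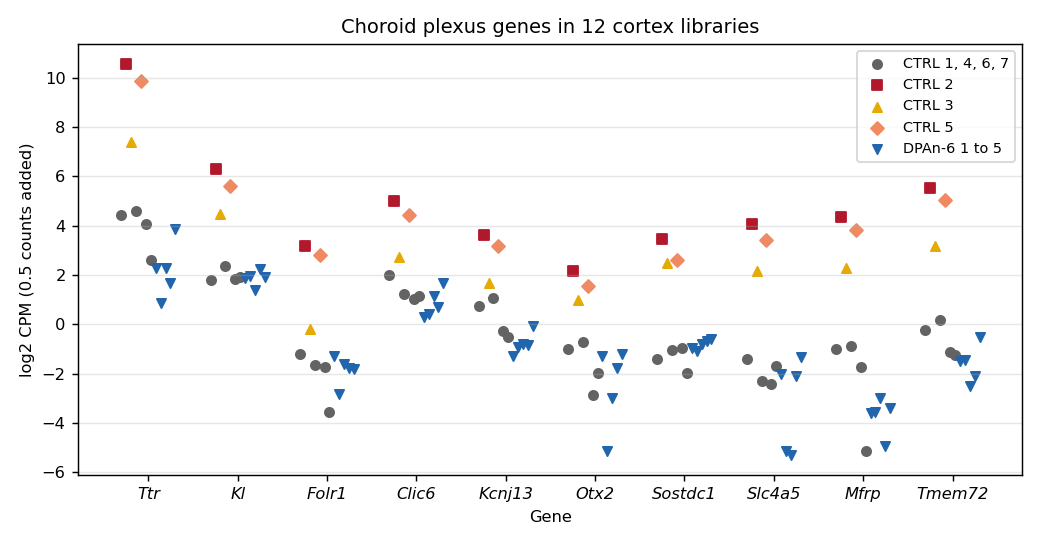
Level of each of the 10 genes in each of the 12 libraries, as log2 CPM with 0.5 counts added, with 1 point per mouse. CTRL 2 and CTRL 5 are the highest 2 for all 10 genes and CTRL 3 is the next, while the other 4 CTRL mice overlap with the 5 DPAn-6 mice.

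The order of the libraries was thus the same at its top for all 10 genes, with CTRL 2 above CTRL 5 above CTRL 3, and below these the neighbours changed places from gene to gene. By comparison, CTRL 2 and CTRL 5 were the highest 2 libraries for 4.96% of the 15688 genes tested between the groups. Since the genes were chosen for this pattern, nothing is read from the comparison. The groups overlapped for all 10. The CPM of the 10 genes summed to 1760.4 in CTRL 2, 1095 in CTRL 5 and 225 in CTRL 3, to 13.8 to 36.7 in the other 4 CTRL mice and to 8.35 to 25.1 in DPAn-6. In these bulk samples, fewer cells of a type and less RNA per cell cannot be told apart.

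Per kilobase of exon, counting all annotated exons of a gene, Ttr was at 1289.8 CPM per kb in CTRL 2. The next were Kcnj13 at 9.58, Kl at 8.42 and Clic6 at 8.22 CPM per kb, and the lowest was Otx2 at 1.06. Ttr took 86.9% of the counts on the 10 genes in CTRL 2, 85.9% in CTRL 5 and 74.0% in CTRL 3. In DPAn-6 mouse 2, the lowest library, it took 21.5%, and there Kl had more counts than Ttr.

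The proportions among the 9 genes other than Ttr were close in CTRL 2 and CTRL 5 and differed in CTRL 3. Kl took 34.0% of the counts on these 9 genes in CTRL 2 (exact 95% binomial interval 32.5 to 35.6, of 3601 counts), 31.98% in CTRL 5 (30.3 to 33.7, of 3008) and 38% in CTRL 3 (34.8 to 41.3, of 900). Sostdc1 took 4.80% in CTRL 2 (4.13 to 5.55), 3.89% in CTRL 5 (3.23 to 4.64) and 9.44% in CTRL 3 (7.61 to 11.5). Those 2 are the signalling genes of the set. Folr1 took 3.86% (3.25 to 4.54), 4.52% (3.81 to 5.33) and 1.44% (0.771 to 2.46), in the same order. Tmem72 took 19.9% (18.6 to 21.2), 21.4% (19.96 to 22.9) and 15.2% (12.9 to 17.7). The intervals cover counting error only, and those of CTRL 3 lie apart from both others for Sostdc1, which was higher, and for Folr1 and Tmem72, which were lower.

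Set against Ttr, there were 5.13 counts of Kl per 100 of Ttr in CTRL 2, 5.24 in CTRL 5 and 13.4 in CTRL 3. Kl also has its share of counts outside the 3 high libraries, where it did not go below 2.61 CPM. From CTRL 3 to CTRL 2 the CPM rose by a factor of 2.0 for Sostdc1 and 2.29 for Otx2, but of 9.17 for Ttr and 10.5 for Folr1. From CTRL 5 to CTRL 2 the factor was between 1.28 for Folr1 and 1.85 for Sostdc1. CTRL 3 is the library with the strongest trend on GC content (rho -0.617), and CTRL 2 has the strongest in the other direction (0.501). Over the 10 genes the rho between the CTRL 2 to CTRL 3 ratio and GC content was 0.455. The part of that trend in the proportions was not tested.

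**Figure D2:**
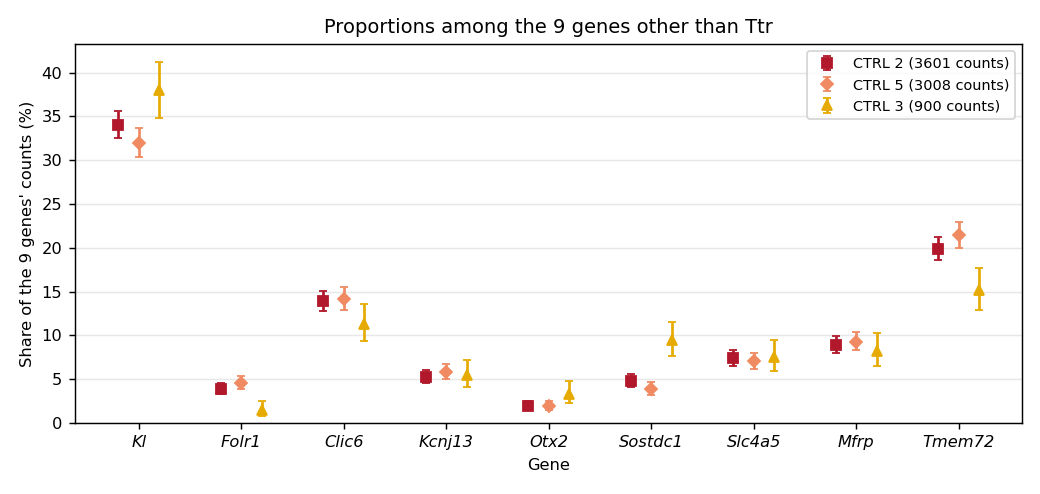
Share of each gene, in percent, among the counts on the 9 genes other than Ttr in the 3 libraries with the highest levels, with bars for exact 95% binomial intervals. CTRL 2 and CTRL 5 lie close together for each gene, and CTRL 3 is higher for Sostdc1 (9.44%) and lower for Folr1 (1.44%) and Tmem72 (15.2%).

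The correlation of each of the 9 genes with Ttr was taken over the 12 libraries on log2 CPM, in which the points share library totals. Pearson's r was 0.976 for Kcnj13, 0.974 for Tmem72, 0.967 for Clic6, 0.959 for Mfrp, 0.931 for Kl, 0.930 for Slc4a5, 0.918 for Folr1, 0.897 for Sostdc1 and 0.896 for Otx2. By rank the genes spread more widely, from a Spearman rho of 0.951 for Kcnj13 and 0.944 for Tmem72 to 0.552 for Kl and 0.476 for Sostdc1. Over the 45 pairs of the 10 genes, r had a median of 0.911 and ran from 0.799 to 0.976.

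Within the 7 CTRL libraries, the 9 values of r with Ttr had a median of 0.969 and the lowest was 0.933 for Otx2. Without CTRL 2 and CTRL 5, the libraries farthest from the median of Ttr, the median r over the remaining 10 libraries was 0.813. Kcnj13 (0.917), Tmem72 (0.909), Mfrp (0.889) and Clic6 (0.886) then stayed close to Ttr. Kl (0.739), Sostdc1 (0.687) and Folr1 (0.678) did so less, and by rank Sostdc1 had a rho of 0.0909 and Kl of 0.224. By rank, the relation of these 2 genes over all 12 libraries rests on CTRL 2 and CTRL 5. The largest gap between neighbours in Ttr was 0.287 of its whole range on the log2 scale, so the libraries were not treated as separate clusters.

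Whether other genes of the same epithelium moved with Ttr was asked with a list of 31 that the choice of the 10 did not name. Ttr was chosen by its levels in these libraries, and all lists with earlier results of these data known. The counts and the p-values of lists against Ttr are thus a description and give no independent support. The list holds the water channel Aqp1, the carbonic anhydrases Car12 and Car14, tight junction claudins, the retinol transporter Stra6 and secreted proteins such as Enpp2, F5 and Lbp. Of the 31, 14 were above 1 CPM in every library, so a part of the list was also measured outside CTRL 2, CTRL 5 and CTRL 3. The cells it came from there were not tested. CTRL 2 and CTRL 5 were the highest 2 libraries for 26 of the 31, and for 20 of the 24 that passed the filter on low counts, against 4.96% of all genes tested.

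The list's mean log2 CPM followed Ttr over the 12 libraries (r = 0.966, permutation p = 2e-05, adjusted p = 0.00022 over 11 relations; rho = 0.937, permutation p = 1e-05, the smallest that 100000 resamples can give, adjusted p = 0.00011). Without CTRL 2 and CTRL 5, r was 0.932 (permutation p = 0.00024, adjusted p = 0.00264), and within the 7 CTRL libraries it was 0.977 (exact permutation p = 0.00119, adjusted p = 0.0131). The mean was 4.22 in CTRL 2, 3.83 in CTRL 5 and 2.95 in CTRL 3. It was 2.22 to 2.58 in the other 4 CTRL mice and 1.96 to 2.42 in the DPAn-6 mice, which overlap.

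Enpp2, the autotaxin gene, which oligodendrocytes also express, had the highest level in the list. Enpp2 was at 311, 833, 404, 277, 650.1, 249 and 303 CPM in CTRL mice 1 to 7, and at 289, 303, 288, 290.5 and 289 CPM in DPAn-6 mice 1 to 5. It was high in the same 3 libraries and lower, from 249 to 311, in the others of both groups. F5 encodes coagulation factor V. F5 was at 2.28, 34.7, 13.9, 1.83, 19.4, 1.56 and 1.74 CPM in CTRL mice 1 to 7, and at 1.03, 1.12, 0.905, 0.329 and 1.21 CPM in DPAn-6 mice 1 to 5. All 7 CTRL mice were above all 5 DPAn-6 mice for F5, in the 4 CTRL mice with low Ttr by a small margin.

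Of the other cell types and regions, only the ependyma list, 12 genes of ciliated cells that line the ventricles, was past the threshold by Pearson's r over the 12 libraries. Its mean followed Ttr with r = 0.733 (permutation p = 0.00767, adjusted p = 0.0422) and rho = 0.818 (permutation p = 0.0017, adjusted p = 0.00935). Without CTRL 2 and CTRL 5, r was 0.788 (permutation p = 0.00673, adjusted p = 0.037), and within CTRL alone it was 0.630 (exact permutation p = 0.144, adjusted p = 0.397). The ependymal genes summed to 24.8 to 35.7 CPM in CTRL and 18.2 to 27.5 CPM in DPAn-6, and each of the 12 had a count. The lowest CTRL sum was that of CTRL 5, where Ttr was at 941 CPM, and the highest that of CTRL 2. The list mean of CTRL 5, 0.96, lay within the 0.86 to 1.04 of the CTRL mice with low Ttr. All 10 tested genes of the list were lower in DPAn-6, against 51.3% of all genes tested. The relation over the 12 libraries thus also takes in the group difference.

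Fibroblasts of the meninges and of the choroid plexus stroma were followed with 11 genes. Their mean had r = 0.562 with Ttr (permutation p = 0.0546, adjusted p = 0.12) and rho = 0.804 (permutation p = 0.00265, adjusted p = 0.00972). Without CTRL 2 and CTRL 5, r was 0.728 (adjusted p = 0.0513 by permutation). The rho over those 10 libraries was 0.855 (adjusted p = 0.017 by permutation). Within CTRL alone r was 0.124 (exact permutation p = 0.771, adjusted p = 1), and the means of CTRL 2 and CTRL 5 (2.96 and 3.04) lay within the range of the other CTRL mice. By summed CPM of the fibroblast list, CTRL 3 (279), CTRL 2 (243) and CTRL 5 (240) were the highest libraries. The other CTRL mice were at 152 to 213 CPM and the DPAn-6 mice at 92.8 to 182 CPM. Plvap, a protein of leaky capillaries, was at 10.4 to 15.9 CPM in CTRL and 9.25 to 11.5 CPM in DPAn-6, with CTRL 7 and not CTRL 2 at the top.

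Striatal genes ran the other way without passing the threshold (r = -0.589, permutation p = 0.0444, adjusted p = 0.12). Their mean was 3.93 in CTRL 5, 4.07 in CTRL 3 and 4.46 in CTRL 2, against 4.54 to 5.69 in the other 4 CTRL mice and 3.99 to 5.35 in DPAn-6. Hippocampal genes had r = 0.611 (permutation p = 0.0345, adjusted p = 0.12), and r = 0.0961 without CTRL 2 and CTRL 5. The thalamus, cortical excitatory neuron, red blood cell, retinal pigment epithelium and hormone and vitamin handling lists and the library total had adjusted p values of 0.601 to 0.986 by r. The part of a different dissection in any of these relations was not tested.

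**Figure D3:**
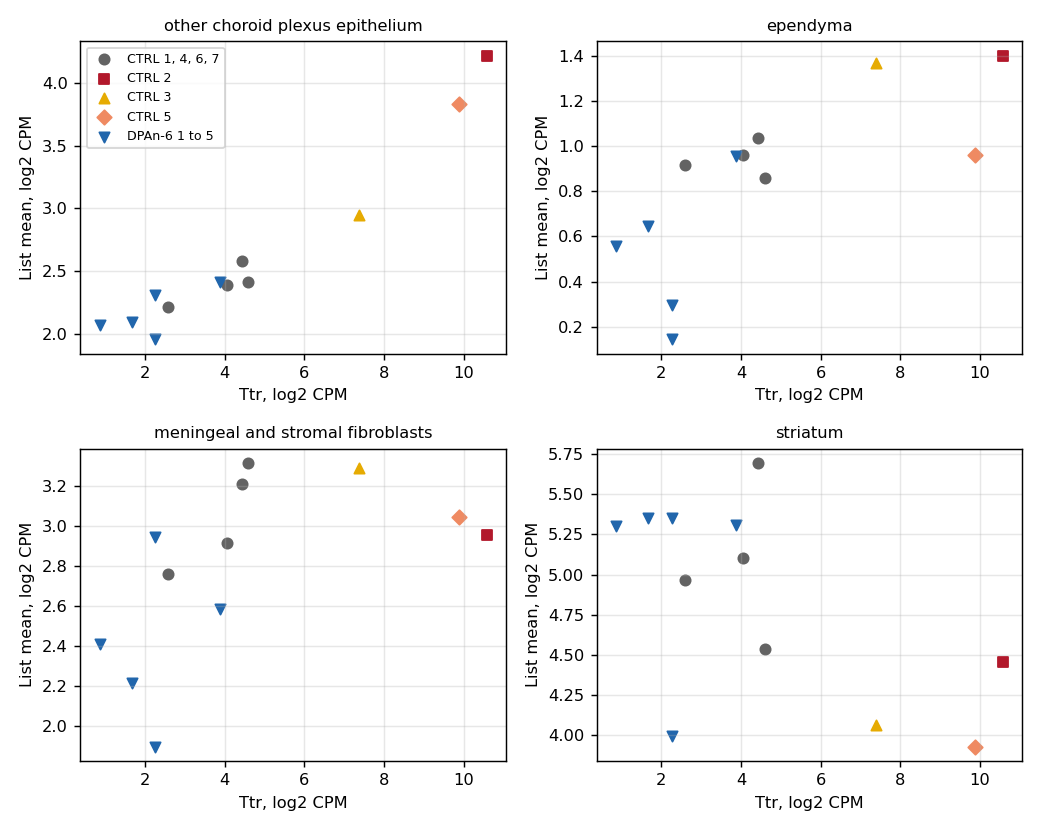
Mean log2 CPM of 4 gene lists against log2 CPM of Ttr, with 1 point per library. The other choroid plexus genes rise with Ttr through CTRL 3, CTRL 5 and CTRL 2 (r = 0.966). The ependyma list follows Ttr less closely (r = 0.733), with CTRL 5 below CTRL 1. The fibroblast list levels off (r = 0.562), and the striatum list is lower at high Ttr (r = -0.589, not past the threshold).

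Genes that handle thyroxine, retinol and folate, the cargo of Ttr and Folr1, were read as a list of 15. They summed to 1265 to 1390.0 CPM in CTRL and 1307 to 1407 CPM in DPAn-6, and their mean had r = 0.00559 with Ttr (permutation p = 0.986, adjusted p = 0.986).

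The 10 genes most like them were found by the r of each gene with the mean of the standardised levels of the 10, over 15682 other genes that passed the filter and the 12 libraries. They were the sugar transporter Slc2a12 (0.964), the retinoid transporter Abca4 (0.962), the junction protein Cgnl1 (0.957), 1500015O10Rik (0.951), also called Ecrg4, F5 (0.946), Sema3b (0.946), the copper transporter Slc31a1 (0.944), Aqp1 (0.942), the angiotensin-converting enzyme Ace (0.941) and Lbp (0.940). In total 17 genes had an r above 0.9, of which 8 were among the 24 tested genes of the other choroid plexus list. Of the 10, Cgnl1, Slc31a1 and Ace were also measured well in libraries with little Ttr, at 23.1 to 27.5, 18.3 to 19.8 and 16.8 to 24.0 CPM in the DPAn-6 mice, and reached 47.3, 28.7 and 84.7 CPM in CTRL 2.

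Between DPAn-6 and CTRL, edgeR's quasi-likelihood test called 243 of the 15688 genes tested (1.55%) at an adjusted p below 0.05, and 179 (1.14%) were lower in DPAn-6. Of the 10 genes, 6 passed the filter on low counts. Ttr, Kl and Clic6 were above 1 CPM in every library, and with Kcnj13 they were also tested without CTRL 2, CTRL 3 and CTRL 5. Outside these libraries Sostdc1 was below 1 CPM, as was Tmem72 except in CTRL 4. None of the 6 was called by edgeR or by limma-voom, all 6 had an unadjusted edgeR p below 0.05 in the lower direction (9.02% of all genes), and DESeq2 called 5 as lower (3.16% of all genes lower, 4.44% in either direction). Nothing is read from these counts, since the genes were chosen in these libraries.

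The fitted log2 fold change, DPAn-6 against CTRL, was -6.01 (SE 1.46) for Ttr, -5.16 (SE 1.37) for Tmem72, -2.82 (SE 0.73) for Kcnj13, -2.71 (SE 0.82) for Kl, -2.65 (SE 0.92) for Sostdc1 and -2.41 (SE 0.74) for Clic6. For the 4 genes below the filter the mean log2 CPM was as follows. Folr1 was at -0.34 ± 2.49 (SD, n = 7) in CTRL and -1.86 ± 0.58 (n = 5) in DPAn-6. Otx2 was at -0.27 ± 1.89 and -2.48 ± 1.66, Slc4a5 at 0.27 ± 2.85 and -3.19 ± 1.89, and Mfrp at 0.24 ± 3.42 and -3.70 ± 0.73, with the same n. The SD within CTRL was larger than the difference of the means for Folr1 and was larger than that within DPAn-6 for all 4.

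The fold changes were recomputed without the high libraries, a choice made after seeing the data. Without CTRL 2 and CTRL 5, the log2 fold change of Ttr was -3.00, and without CTRL 3 as well it was -1.49. Over the same steps Kl went to -1.08 and then -0.13, Clic6 to -0.84 and -0.43, and Kcnj13 to -1.48 and -1.10. No gene of the 10 was called in either case. Without CTRL 3 alone, 953 genes were called in all, 3 of the 10 among them, and without CTRL 7 alone 232 were called, 2 of the 10 among them.

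For the other choroid plexus list, 24 of 31 genes passed the filter. All 24 had a negative log2 fold change, against 51.3% of all genes tested. The median was -0.80, beside -0.00 over all genes tested. Without the filter, 30 of the 31 had a lower mean log2 CPM in DPAn-6, against 6655 of the 15688 genes tested. An unadjusted p below 0.05 was found for 14 of the 24, all lower (9.02% of all genes), and 1 was called, Wfikkn2, a secreted protease inhibitor-like protein that binds growth factors of the TGF-beta family. Wfikkn2 was at 2.98, 3.91, 2.54, 2.18, 3.44, 2.48 and 1.46 CPM in CTRL mice 1 to 7, and at 1.14, 0.953, 1.01, 1.05 and 1.62 CPM in DPAn-6 mice 1 to 5. CTRL 7 was the only CTRL mouse below the highest DPAn-6 mouse, and unlike for Ttr, CTRL 3 was no higher than CTRL 1. The log2 fold change of Wfikkn2 was -1.23 (SE 0.24, edgeR adjusted p = 0.0188), and limma-voom also called it. It was not called without DPAn-6 mouse 1, 2, 3 or 4 (edgeR adjusted p = 0.0545 to 0.0728) or without CTRL 2 and CTRL 5 (0.0693).

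DESeq2 called 9 of the 24, all lower (3.16% of all genes). F5 and Col8a1, a collagen chain, were the 2 genes of the list without overlap between the groups (1.49% of all genes tested had no overlap and were lower). Without CTRL 2 and CTRL 5 none of the 23 genes then tested was called by edgeR, and without CTRL 3 as well 4 were, 3 of them lower.

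Some genes of tissue that adjoins the choroid plexus also fell in DPAn-6. Over all genes tested, 1.14% were called lower and 51.3% had a negative log2 fold change. In the fibroblast list 4 of 11 genes fell, Lum (log2 fold change -1.23, adjusted p = 0.0248) and Col1a2 (-0.69, adjusted p = 0.017), which encode matrix proteins, Igf2 (-1.02, adjusted p = 0.0484), a growth factor, and Slc22a6 (-0.82, adjusted p = 0.0134), an organic anion transporter. All 11 had a negative log2 fold change (median -0.66). In the ependyma list 1 of 10 fell, Hydin (-1.23, adjusted p = 0.0142), of the central apparatus of cilia, with all 10 negative (median -0.45). Of the retinal pigment epithelium list, which is not of an adjoining tissue, 2 genes were tested and went opposite ways. Rpe65, a retinoid isomerase, fell (-1.16, edgeR adjusted p = 0.0371). Best1 had a positive log2 fold change (0.25) and was not called (edgeR adjusted p = 0.783). All 8 striatal genes had a positive log2 fold change (median 0.34) and none was called, by edgeR, DESeq2 or limma-voom, with 1 at an unadjusted p below 0.05. Leaving out 1 mouse ended the edgeR call of Slc22a6 (adjusted p = 0.0549) and of Hydin (0.0557) for DPAn-6 mouse 3, and that of Col1a2 for DPAn-6 mouse 2, 3 or 4 (0.0512 to 0.0557). It ended that of Lum for CTRL 4 or DPAn-6 mouse 2, 3, 4 or 5 (0.0503 to 0.0877), that of Igf2 for CTRL 1, 2, 4, 5 or 6 or DPAn-6 mouse 2, 3, 4 or 5 (0.0564 to 0.165), and that of Rpe65 for any mouse but CTRL 3 and CTRL 5 (0.0519 to 0.114). How far a different share of these tissues in the dissected cortex enters the fold changes was not tested.

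**Figure D4:**
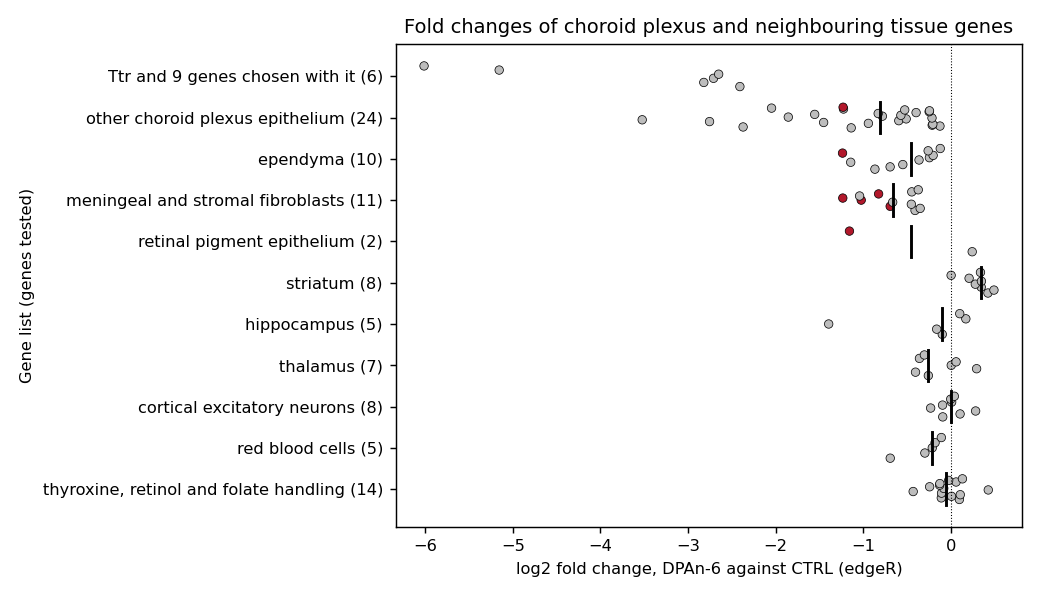
log2 fold change of DPAn-6 against CTRL by edgeR for each tested gene, by list, with the number tested in brackets, the median of each list as a bar (not drawn for the first row, whose genes were chosen in these libraries), and genes with an adjusted p below 0.05 in red. The first 4 rows lie below 0, with 1 red gene in the other choroid plexus list, 1 in the ependyma list and 4 in the fibroblast list, and the striatum list lies at or above 0.

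Age was the other factor that the labels give. CTRL 2, CTRL 3 and CTRL 5 were all 14 months old, but so were CTRL 4, with Ttr at 24.1 CPM, CTRL 6, at 16.7 CPM, and 3 of the DPAn-6 mice. The 12-month mice had Ttr at 21.5 and 6.0 CPM in CTRL and 4.78 and 3.16 CPM in DPAn-6. Within a fit over all 12 mice with the group as covariate, the log2 fold change of Ttr in 14-month against 12-month mice was 3.38 (SE 1.59). It is given with no test, since the genes were chosen for being high in libraries that are all from 14-month mice. None of the 15688 genes was called for age by edgeR (0.0% called), DESeq2 or limma-voom. An unadjusted edgeR p below 0.05 was found for 178 genes in the higher direction (1.13%) and for 101 genes in the lower direction.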

How the data were processed

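RNA-Seq was run on cortex RNA of 7 CTRL and 5 DPAn-6 mice, 1 library per mouse, grouped by the sample titles. The authors made poly(A)-selected KAPA mRNA libraries, aligned reads with STAR 2.5.3a (from the submitters' processing notes) to GRCm38 with Ensembl genes, and deposited a table of raw, unnormalized gene counts. No source used here gives the strand setting of the counting. Of 50563 identifiers, 50339 matched the GENCODE M21 annotation of GRCm38, from which symbols, positions and lengths were taken.

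The 10 genes and all lists were chosen with earlier results of these data known. CPM is counts per 1000000 counts on genes, and log2 CPM has 0.5 counts added. The tests across genes used edgeR 4.0.16 (R 4.3.3; filterByExpr by group, TMM, glmQLFit and glmQLFTest, no covariate for the group comparison, group as covariate for age, Benjamini-Hochberg adjustment over 15688 genes, threshold 0.05), and the script was tested on simulated data. Relations of 10 list means and the library total to Ttr used two-sided permutation tests with 100000 resamples, or all pairings for the 7 CTRL libraries (Python 3.11.15, numpy 2.4.6, scipy 1.17.1, pandas 2.3.3), adjusted over 11 relations. The genes named are the 10, the list genes past the threshold, the highest or defining list genes, Plvap, C1qtnf5 and the 10 genes most alike. Alternatives were DESeq2 1.42.0, limma-voom 3.58.1, the same with sample weights, totals in place of TMM, no filter, at least 1 CPM in 5 mice, age as covariate, no group term, 14-month mice only, the replicate number as block, 1 count added, and each mouse left out. Added after seeing the data was leaving out CTRL 2 and CTRL 5, and CTRL 3 with them. F5 and Col8a1 were named for their lack of overlap, and Aqp1, Car12, Car14, Stra6, Lbp and Gigyf2 as examples, after their values were seen. With 1 library per mouse, p-values measure the spread between mice. At 15208803 to 26520251 counts per library, genes below 1 CPM rest on few reads.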

Additional observations from a re-analysis of the deposited data

Results flagged for a closer look

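In 4 of the 40 groups of libraries examined, 1 library stood apart from the others of its group by Dixon's test. Chance flags about 1 in 20 groups. None of the 4 concerned one of the 10 choroid plexus genes, whose high values are spread over 3 of the 7 CTRL libraries.

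In CTRL 3 the mean log2 CPM was -0.64 for the retinal pigment epithelium list and 4.66 for the thyroxine, retinol and folate list, both the lowest of the 7 CTRL libraries. In DPAn-6 mouse 1 the mean of the striatum list was 3.99, below the other 4 DPAn-6 mice at 5.30 to 5.35. In DPAn-6 mouse 2 the mean of the red blood cell list was 2.07, above the other 4 at -0.37 to 0.24.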

How the results depend on the processing

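Of the 15688 genes tested between DPAn-6 and CTRL, edgeR called 243 (1.55%) and DESeq2 696 (4.44%). The count was 1267 with sample weights in limma-voom and 9 in the 14-month mice only. It was 85 without CTRL 2 and CTRL 5 and 541 without CTRL 2, CTRL 3 and CTRL 5. With 1 mouse left out at a time it was 64 (without DPAn-6 mouse 3) to 953 (without CTRL 3). Of the 10 genes, 0 were called by edgeR, 5 by DESeq2 and 4 without the filter on low counts, and 0 to 3 with 1 mouse left out, the highest without CTRL 3 and the next, 2, without CTRL 7. Of the other choroid plexus genes, 1 was called by edgeR, 9 by DESeq2, 5 with sample weights in limma-voom and 5 without the filter, 0 in the 14-month mice only, 0 without CTRL 2 and CTRL 5 and 4 without CTRL 3 as well, and 0 to 7 with 1 mouse left out. All 7 genes called in the lists outside the 10 kept a negative log2 fold change under the 23 alternatives, were not called in the 14-month mice only, and were called under 9 (Igf2, Rpe65) to 20 (Hydin, Slc22a6) of them. With the replicate block Lum (adjusted p = 0.108), Rpe65 (0.134) and Slc22a6 (0.0568) were not called. The cause was not tested, beside the smaller number of mice. The same replicate number does not pair mice in these labels, and the r between the deviations of mice with the same number was -0.12 to 0.23. With the replicate block, 69 genes, 2 of the 10 and 4 other choroid plexus genes were called. The counts for the 10 and for the other choroid plexus genes move with those over all genes, and nothing is concluded from them. For the fit without the filter the count over all genes is not given here. By r the relation of the ependyma list to Ttr was not past the threshold in the 7 CTRL libraries alone (0.630, adjusted p = 0.397). The median r of the 9 genes with Ttr was 0.931, and it was 0.969 in the CTRL libraries alone and 0.813 without CTRL 2 and CTRL 5. The fitted log2 fold changes of the 6 tested genes stayed negative under all alternatives, from -6.73 to -1.49 for Ttr and from -3.10 to -0.13 for Kl. No gene was called for age under any alternative run. Outside the 3 high libraries, Slc4a5, Mfrp, Otx2 and Folr1 rested on 0 to 11 counts per library, which limits the precision of their levels there.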
